A study of Mus musculus with 6 samples.

Results

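Classical monocytes of mouse hearts were chosen by their raw UMI counts (unique molecular identifiers, 1 for each captured RNA molecule), with a gate on the levels of named genes. A cell had to hold at least 5 UMIs of Csf1r, Cd68, Fcgr1 and Lyz2 together and at least 5 of Ly6c2 and Chil3 together. It had to stay below limits on genes of neutrophils, fibroblasts, endothelial cells, Arg1 Spp1, Ccl24 Saa3 Ednrb and Trem2 Gpnmb macrophages, Ear2 Adgre4 monocytes, resident macrophages and interferon-responding cells. Of 34940 deposited cells, 30014 had at least 1000 UMIs, at least 200 detected genes and at most 20% mitochondrial UMIs, and 1063 of these passed the gate. They came from 6 libraries, with 110 in WT sham, 95 in KO sham, 69 and 189 in WT and KO at 24 h after ligation, and 343 and 257 at 72 h.

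Classical monocytes are made in the bone marrow, leave it by way of the chemokine receptor Ccr2, and enter injured tissue from the blood. In mice they carry the surface protein Ly6C, and in an infarcted heart they are known to secrete inflammatory mediators and to turn into macrophages. Their number and state in the tissue at a given time thus depend on supply, entry and conversion, none of which was measured here.

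The cells come from single-cell RNA sequencing of the ventricles without their cardiomyocytes, by droplet 3' chemistry. WT mice were of the strain C57BL/6JRj, and KO mice, of the strain B6.Cg-Trpm4tm1.2-PG, lacked Trpm4, a cation channel opened by intracellular calcium. All mice were male, 8 to 12 weeks old and operated on: a sham operation with hearts taken at 24 h, or LAD ligation, the closure of a main coronary artery that causes an infarct, with hearts taken after 24 h or 72 h. Live-sorted cells of 4 mice were pooled into 1 library for each of the 6 groups. From the labels it is not known which stretch of Trpm4 is deleted or whether the WT and KO mice were littermates, so genotype and strain cannot be told apart, and the 72 h hearts have no sham group of their own. With 1 library a group, no difference below has a replicate check, no test was made, and every interval is a 95% interval of counting error only.

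The libraries held 20995280 to 45649061 UMIs. Kept cells had a median of 4014 UMIs in WT sham and 4059 in KO sham, 4589 in WT and 3248 in KO at 24 h, and 8559 in WT and 2182 in KO at 72 h of ligation. The monocytes themselves were deeper and more alike, at medians of 10778, 9182, 10132, 8818, 9329 and 7428 UMIs in that order. In each pair of libraries 3 to 14 deposited cell barcodes were shared, and 0 of the monocytes had a shared barcode. A doublet score marked 1 to 12 monocytes a library, and these were kept. Trpm4 (chr7:45302632-45333780 in GRCm38) gave 3 to 18 UMIs over all monocytes of a library, 2.57 CPM in WT and 7.84 in KO sham, 4.20 and 4.14 after 24 h of ligation, and 5.51 and 1.73 after 72 h. At these counts Trpm4 says little about the labels, and a 3' tag outside the deleted part would check nothing.

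Gated monocytes made up a larger share of kept cells at 72 h of ligation than in the other libraries. The share was 2.06% (1.70 to 2.48) in WT sham and 1.63% (1.32 to 1.99) in KO sham, with Clopper-Pearson intervals. At 24 h of ligation it was 2.16% (1.68 to 2.72) in WT and 2.81% (2.43 to 3.23) in KO, and at 72 h it was 7.78% (7.01 to 8.62) in WT and 5.69% (5.03 to 6.40) in KO. Both 72 h intervals lay above all others, and the WT sham and WT 24 h intervals overlapped. Among cells that passed the first steps for monocytes and macrophages, the monocytes were 9.30% and 10.9% in WT and KO sham, 9.76% and 11.4% at 24 h, and 13.7% and 9.69% at 72 h. In KO at 72 h these monocyte and macrophage cells had a median of 2651 UMIs, against 9757 to 11985 in the other 5 libraries, and a gate on raw UMIs takes the deeper cells of such a library.

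**Figure D1:**
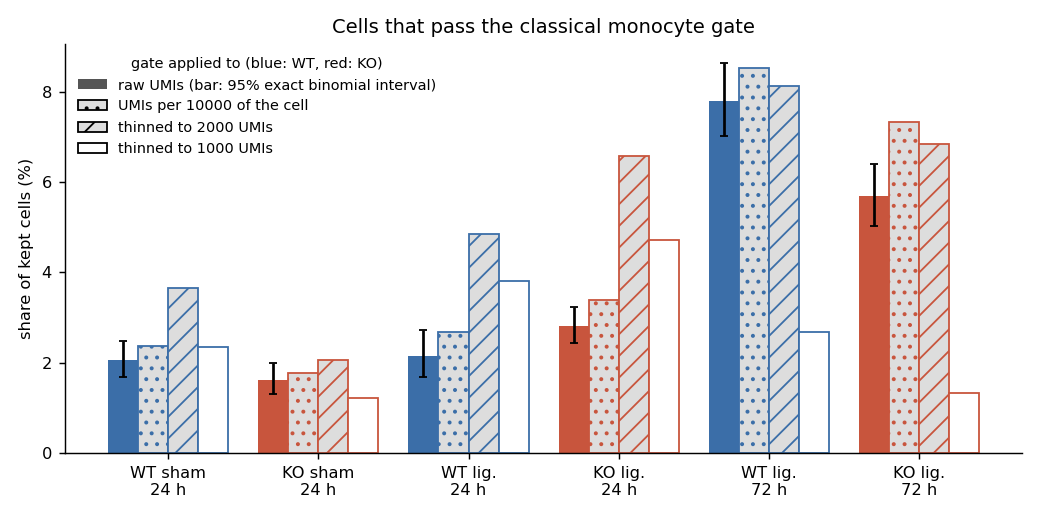
Share of kept cells (%) that passed the monocyte gate in each library, blue for WT and red for KO, with the gate read on raw UMIs (error bar: 95% Clopper-Pearson interval), on UMIs per 10000 of the cell, and on cells thinned to 2000 or to 1000 UMIs. On raw UMIs both 72 h ligation (lig.) libraries are highest, at 7.78% and 5.69%, and with every cell thinned to 1000 UMIs the 24 h ligation libraries are highest, at 3.81% and 4.72%.

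How many cells the gate found, and the order of the libraries, moved with how the gate was read. When every kept cell was thinned to 1000 UMIs, the shares were 2.36% and 1.22% in WT and KO sham, 3.81% and 4.72% at 24 h, and 2.68% and 1.33% at 72 h. With cells of at least 2000 UMIs thinned to 2000 they were 3.66% and 2.07%, 4.86% and 6.58%, and 8.12% and 6.84%. Read per 10000 UMIs of each cell, a reading added after the data were seen, the gate gave 2.38% and 1.77%, 2.69% and 3.39%, and 8.51% and 7.33%. The higher share at 72 h thus held in WT in 3 of these 4 readings and not in cells thinned to 1000 UMIs. In KO it was also lost there, and in cells thinned to 2000 UMIs the KO shares at 72 h and 24 h were close, at 6.84% and 6.58%. Thinning left the limits of the gate unchanged, so it also changed which cells passed. At 1000 UMIs the Arg1 and Spp1 step kept 93.6% to 98.4% of cells, against 40.8% to 72.7% on raw UMIs. Of the cells that passed at 1000 UMIs, 25.4% to 66.7% a library had also passed on raw UMIs.

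The step on Arg1 and Spp1, genes of infarct macrophages, kept 45.9% and 42.1% of the cells with Ly6c2 and Chil3 in WT and KO sham, 40.8% and 42.6% at 24 h of ligation, and 59.7% and 72.7% at 72 h. The Ly6c2 and Chil3 step was passed by 518 and 382 cells in WT and KO sham, 446 and 1068 at 24 h, and 1192 and 546 at 72 h. With fewer than 20 UMIs of Arg1 and Spp1, 238 and 161, 182 and 455, and 712 and 397 of them remained. The gated monocytes are thus those with little Arg1 and Spp1, and nothing below with the gate on raw UMIs describes the cells that were removed. Over all libraries, 80 monocytes held exactly 5 UMIs of Ly6c2 and Chil3, and 110 cells that met every other limit held 4; Plac8, which the gate did not use, stood at 1378 CPM in the former and 1539 in the latter.

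Levels are given as CPM, the UMIs of a gene summed over the monocytes of a library per 1000000 UMIs of those cells. Classical monocyte genes that the gate did not use were high in these cells. Plac8, a marker of circulating myeloid cells (chr5:100553725-100572245), stood at 1679 CPM in WT and 1423 in KO sham, 2025 and 1713 after 24 h of ligation, and 3189 and 2798 after 72 h. Ccr2 (chr9:124101950-124113557) stood at 1213 CPM in WT and 1068 in KO sham, 791 and 831 after 24 h of ligation, and 1052 and 972 after 72 h. Vcan, the proteoglycan versican (chr13:89655312-89742509), was at 441 CPM in WT and 462 in KO sham, 483 and 339 after 24 h of ligation, and 170 and 189 after 72 h. Plac8, Ccr2, Vcan and Ms4a4c were each higher in the gated monocytes than in Ear2 Adgre4 monocytes, resident macrophages and neutrophils of the same library in 6 of 6 libraries. Hp, haptoglobin, was lower than in neutrophils in 6 of 6, and F13a1, coagulation factor XIII, was below its level in resident macrophages in 6 of 6.

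The label Ly6c2 fitted only some of the cells, because Chil3, a secreted chitinase-like protein, carried most of them through the gate. Ly6c2 (chr15:75108158-75111970), which encodes a Ly6C protein, stood at 301 CPM in WT and 311 in KO sham, 432 and 329 after 24 h of ligation, and 927 and 547 after 72 h. Chil3 (chr3:106147554-106167564) stood at 3894 CPM in WT and 4065 in KO sham, 5822 and 5168 after 24 h of ligation, and 1672 and 1887 after 72 h. Ly6c2 was highest at 72 h in both genotypes, and Chil3 was lowest there. The gate used both genes, so these levels describe the choice. At least 5 UMIs of Ly6c2 were found in 25.5% and 25.3% of the monocytes of WT and KO sham, 40.6% and 22.8% at 24 h, and 49.3% and 29.2% at 72 h, and 22.7% to 42.3% held 0. Thinned to 1000 UMIs, 19.1% and 23.2%, 31.9% and 21.7%, and 42.9% and 39.3% of them held a Ly6c2 UMI, against 57.7% to 77.3% unthinned. Endothelial cells, with medians of 3305 to 5712 UMIs, held a Ly6c2 UMI in 0% to 0.915% after the same thinning. They held a Chil3 UMI in 0.730% and 0.830% in WT and KO sham, 2.95% and 9.15% at 24 h, and 0.633% and 2.60% at 72 h. For the monocytes that share was 67.3% to 82.5%. Whether free Chil3 RNA helped cells through the gate was not tested.

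Ly6c2 and its neighbour Ly6c1 have nearly the same transcript, which bears on what a Ly6c2 UMI is. The last 300 bases of the 2 transcripts, where 3' reads fall, matched at 287 of 293 aligned bases (98.0%), so reads could be split between them and both values are uncertain. Yet Ly6c1 stood at 0.612 to 14.5 CPM in the monocytes and at 1019 to 3509 in endothelial cells, where Ly6c2 was at 0 to 5.63. Their upstream sequences were less alike, at 170 of 210 aligned bases (81.0%) over the 250 bases before the first RefSeq start, which are shown for that reason on the minus strand of GRCm38.p6, at chr15:75111972-75112221 for Ly6c2 and chr15:75048838-75049087 for Ly6c1.
Ly6c2: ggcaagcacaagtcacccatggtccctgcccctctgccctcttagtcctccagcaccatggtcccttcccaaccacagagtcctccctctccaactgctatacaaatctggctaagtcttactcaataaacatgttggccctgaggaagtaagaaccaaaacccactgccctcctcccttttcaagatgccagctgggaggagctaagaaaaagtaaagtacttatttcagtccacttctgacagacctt
Ly6c1: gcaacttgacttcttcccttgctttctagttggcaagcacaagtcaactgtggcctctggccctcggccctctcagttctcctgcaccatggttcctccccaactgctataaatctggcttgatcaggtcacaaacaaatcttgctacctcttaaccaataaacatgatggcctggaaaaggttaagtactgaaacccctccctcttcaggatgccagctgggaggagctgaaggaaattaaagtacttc

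Several genes that define other cells were low in the monocytes but not all absent. C1qa, a complement gene of tissue macrophages, stood at 179 to 410 CPM against 3667 to 6086 in resident macrophages. Those were also chosen by raw UMIs, and their Lyve1 was at 708 CPM in WT sham and 25.4 in WT at 72 h. Whether other macrophages entered that set was not tested. Csf3r, the G-CSF receptor, was at 47.0 to 64.2 against 956 to 1850 in neutrophils, and Retnlg at 0 to 8.65 against 883 to 4963. Chil3 itself is no mark of monocytes alone, since neutrophils held 269 to 4603 CPM, close to the 5168 CPM of the monocytes in KO at 24 h. Of 8 dendritic cell genes, Xcr1 was at 0 in all 6 libraries and the list summed to 44.1 to 109 CPM. No dendritic cells were set beside the monocytes, so this sum has no reference level. H2-Ab1, also a dendritic cell marker, and Cd74 were not low, at 299 to 1187 and 1372 to 4066 CPM. Each was above its level in resident macrophages in 5 of 6 libraries, and above that in Ear2 Adgre4 monocytes in 0 of 6.

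**Figure D2:**
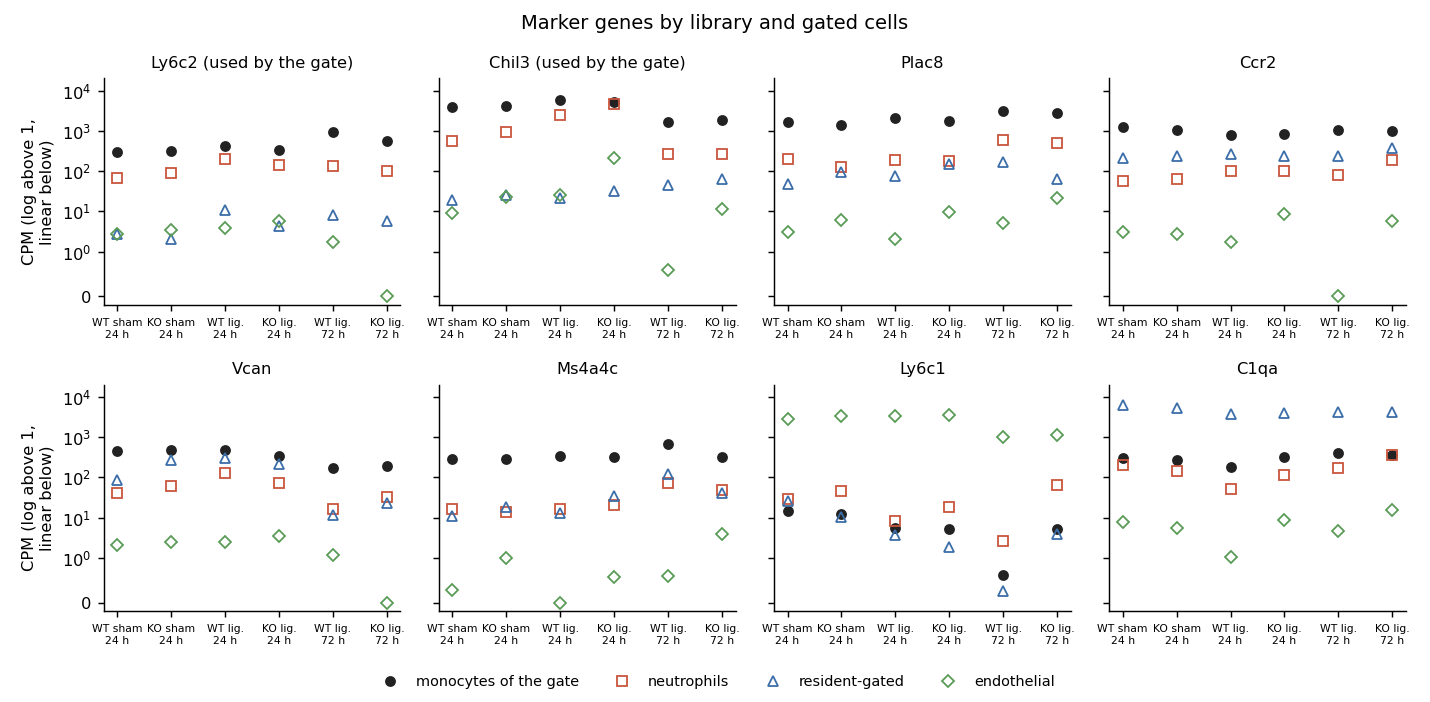
CPM of 8 genes in the gated monocytes (filled), neutrophils, resident macrophages and endothelial cells of each of the 6 libraries, on an axis that is log above 1 and linear below. Plac8, Ccr2, Vcan and Ms4a4c are highest in the monocytes in every library, Ly6c1 is highest in endothelial cells and C1qa in resident macrophages, while Chil3 of neutrophils reaches 4603 CPM at 24 h.

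The 367 monocytes with at least 5 UMIs of Ly6c2 differed from those that passed on Chil3 with fewer. Hp was higher in the Ly6c2 cells in 6 of 6 libraries, at 724 to 1261 CPM against 522 to 690. Ifitm6 (466 to 775 CPM against 260 to 371), Plac8 and S100a4 were also higher in 6 of 6. Apoe, the lipid carrier of macrophages, was lower in the Ly6c2 cells in 6 of 6, at 1042 to 4565 CPM against 4857 to 7586, as were Il1b, H2-Ab1 and the lysosomal genes Ctsd and Lgmn. Ccr2 was higher in 4 of 6 and lower in the other 2. Ly6c2 took part in the split, and the cells of both sets share their library, so these are descriptions over 6 libraries with no test.

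At 24 h of ligation the monocytes of both genotypes held more RNA of genes of glycolysis and of the response to low oxygen than after sham. A gene counts as measured with at least 50 UMIs over the pair of libraries and as higher or lower when its CPM differs at least 2-fold. Of 4160 genes measured in WT, 4.98% were past 2-fold, with 2.74% higher and 2.24% lower, and of 4794 in KO 2.52% were, with 1.36% higher and 1.17% lower. Of the glycolysis and hypoxia genes, 7 of 17 measured were higher in WT (Slc2a1, Hk2, Bnip3, Ndrg1, Hilpda, Ero1l and Slc16a3), 6 of 18 in KO (Slc2a1, Tpi1, Bnip3, Hilpda, Ero1l and Egln3), and 0 were lower. The list's median log2 ratio was 0.97 in WT and 0.80 in KO, against -0.06 and -0.05 over all genes measured. In the cells with at least 5 UMIs of Ly6c2 (28 and 28 cells in WT, 24 and 43 in KO) the list's medians were 0.51 and 0.39. Its summed level was 6492 CPM in WT sham and 10871 at 24 h, and 6437 and 10643 CPM in KO.

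Levels of single genes follow in the order sham, 24 h and 72 h of ligation, and log2 ratios are given with their counting intervals. Hilpda, which blocks lipid droplet breakdown (chr6:29272488-29275446), stood at 19.7, 322 and 16.2 CPM in WT and 8.96, 115 and 44.4 CPM in KO. Its log2 ratio of 24 h to sham was 4.03 (3.41 to 4.72) in WT and 3.68 (2.67 to 4.91) in KO, and 24 h was the high point of both genotypes. Bnip3, a mitophagy receptor, stood at 24.8, 171 and 54.5 CPM in WT and 30.2, 115 and 57.1 CPM in KO, with log2 ratios of 2.78 and 1.93. The disulfide-forming oxidase gene Ero1l stood at 31.7, 161 and 38.3 CPM in WT and 51.5, 141 and 49.0 CPM in KO, and the glucose transporter gene Slc2a1 at 44.5, 162 and 48.1 CPM in WT and 58.2, 127 and 45.5 CPM in KO. For both, the counting intervals of 24 h and sham did not overlap in either genotype. Hk2, hexokinase 2, stood at 86.4, 272 and 71.0 CPM in WT and 184, 240 and 87.6 CPM in KO, so that it was past 2-fold in WT (log2 1.65) and not in KO, where sham was higher. At 72 h each of these 5 genes was lower than at 24 h, past 2-fold in both genotypes. Bnip3 in KO, at log2 -1.01, lost this call in cells thinned to 1000 UMIs (0.15) and in the Ly6c2 cells (0.42). It also lost it with doublets removed (-0.93) and with the gate read per 10000 UMIs (-0.88). Of the list genes, 7 of 18 in WT and 6 of 19 in KO were lower, with 0 higher. In the Ly6c2 cells the list's medians for 72 h against 24 h were -0.24 in WT and -0.04 in KO, against -0.71 and -0.61 in all. There Bnip3 in WT (-0.24) and Ero1l (-0.28), Hilpda (-0.32) and Slc2a1 (-0.70) in KO were within 2-fold, as was Slc2a1 for 24 h against sham in KO (0.49).

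The promoters of these genes were searched for ACGTG, the core of the hypoxia response element bound by hypoxia-inducible factors, on both strands (CACGT on the other). It was found in the 250 bases before a RefSeq start of 13 of the 19 list genes with a RefSeq promoter (68.4%), against 4998 of 27025 genes in all (18.5%). By window the shares were 14 of 27 (51.9%) and 5444 of 32851 (16.6%). Base composition was not matched, and a match is a description, not a binding site. The list was chosen to hold genes of the response to low oxygen, so its share describes the list and not these monocytes. Of chemokine genes, 2 of 10 held it, and of MHC class II genes 0 of 6. Windows of 3 genes that were higher at 24 h in both genotypes are shown, read 5' to 3' on the gene's strand in GRCm38.p6 with the motif in capitals: Bnip3 at chr7:138909507-138909756 (minus strand, where CACGTG holds both overlapping matches), Slc2a1 at chr4:119108495-119108744 (plus strand) and Ero1l, RefSeq Ero1a, at chr14:45318573-45318822 (minus strand).
Bnip3: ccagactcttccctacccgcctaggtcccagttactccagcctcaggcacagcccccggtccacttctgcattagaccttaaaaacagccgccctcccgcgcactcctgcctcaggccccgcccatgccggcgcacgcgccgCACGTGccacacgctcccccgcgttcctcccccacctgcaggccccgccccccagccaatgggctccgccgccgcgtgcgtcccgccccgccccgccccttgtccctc
Slc2a1: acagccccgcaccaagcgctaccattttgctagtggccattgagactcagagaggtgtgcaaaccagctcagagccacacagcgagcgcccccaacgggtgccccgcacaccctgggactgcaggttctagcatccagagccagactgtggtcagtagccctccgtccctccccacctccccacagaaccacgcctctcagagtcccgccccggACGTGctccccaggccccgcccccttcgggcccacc
Ero1l: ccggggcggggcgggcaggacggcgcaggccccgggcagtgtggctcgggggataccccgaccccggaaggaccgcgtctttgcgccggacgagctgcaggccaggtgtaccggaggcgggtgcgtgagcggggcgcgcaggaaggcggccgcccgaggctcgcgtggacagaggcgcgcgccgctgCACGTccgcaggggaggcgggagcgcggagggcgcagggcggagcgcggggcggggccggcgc

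**Figure D3:**
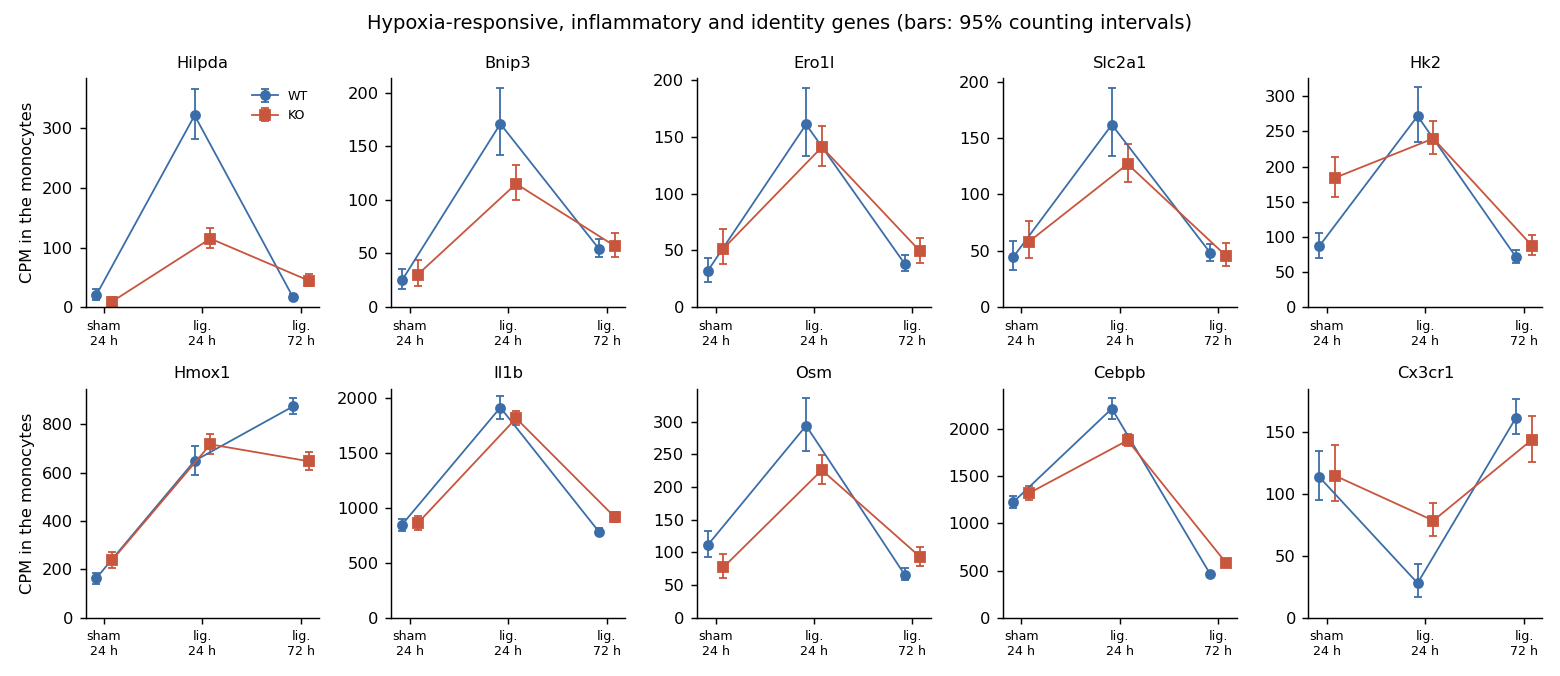
CPM of 10 genes in the monocytes after sham at 24 h and after ligation (lig.) at 24 h and 72 h, WT in blue and KO in red, each point 1 library, with bars for 95% counting intervals. Hilpda, Bnip3, Ero1l, Slc2a1, Hk2, Il1b, Osm and Cebpb peak at 24 h in both genotypes, Hmox1 is higher at 24 h and 72 h than after sham, and Cx3cr1 is lowest at 24 h.

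Inflammatory mediators were also higher at 24 h than after sham. Il1b, interleukin-1 beta, stood at 844, 1910 and 783 CPM in WT and 858, 1812 and 916 CPM in KO, with log2 ratios of 1.18 (1.06 to 1.30) in WT and 1.08 (0.96 to 1.20) in KO. Osm, oncostatin M, stood at 111, 294 and 66.1 CPM in WT and 77.3, 226 and 92.8 CPM in KO, and Il1r2, the decoy receptor of interleukin-1, at 27.4, 98.0 and 12.9 CPM in WT and 19, 62.6 and 18.4 CPM in KO. Of the cytokine and inflammasome genes, 7 of 11 measured were higher in WT and 4 of 10 in KO (Il1b, Osm, Ptgs2 and Il1r2), and 0 were lower. In the cells with at least 5 UMIs of Ly6c2, Il1b was within 2-fold, at log2 0.89 in WT and 0.15 in KO, and Osm was past it, at 1.20 and 2.50. The neutrophil-attracting chemokine genes Cxcl2, at 322, 2395 and 205 CPM in WT and 542, 1233 and 715 CPM in KO, and Cxcl3, at 12.0, 557 and 12.9 CPM in WT and 24.6, 271 and 35.2 CPM in KO, peaked at 24 h in both genotypes as well. Cd14, the lipopolysaccharide co-receptor, was past 2-fold in WT only, at 463, 1534 and 383 CPM in WT and 663, 942 and 504 CPM in KO; whether the genotypes differ in this was not tested.

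Of the antioxidant, heme and iron genes, 2 of 9 measured were higher at 24 h in WT (Hmox1 and Slc7a11) and 1 was lower, and 4 of 10 were higher in KO (Hmox1, Slc7a11, Mt1 and Mt2) and 0 lower. The 1 lower in WT was Blvrb, a biliverdin reductase gene of heme breakdown, at 110 CPM after sham and 51.8 at 24 h (log2 -1.08), or -0.75 with the gate read per 10000 UMIs. In KO its log2 ratio was 0.05. Mt1, a metallothionein gene, was at log2 1.11 in KO, or -0.08 in the cells with at least 5 UMIs of Ly6c2 and 0.79 without its richest cell. Hmox1, heme oxygenase 1, stood at 163, 649 and 874 CPM in WT and 237, 717 and 647 CPM in KO, log2 2.0 (1.75 to 2.25) in WT and 1.60 (1.38 to 1.81) in KO, and did not return to its sham level at 72 h. In the Ly6c2 cells the ratio was 2.36 in WT and 0.19 in KO. In WT at 24 h, 127 of its UMIs lay in 1 cell, and in KO 143 did. Slc7a11, the cystine carrier, stood at 14.5, 112 and 28.8 CPM in WT and 25.8, 91.0 and 28.8 CPM in KO. Plaur, the urokinase receptor, stood at 157, 633 and 142 CPM in WT and 176, 391 and 119 CPM in KO, the stress gene Ier3 at 186, 764 and 119 CPM in WT and 143, 516 and 198 CPM in KO, and Smox, spermine oxidase, at 92.4, 239 and 101 CPM in WT and 97.4, 201 and 114 CPM in KO. These last 3 were all past 2-fold in both genotypes, with Smox in KO at log2 0.45 in the Ly6c2 cells. Of genes measured in both genotypes (4109), 23 were higher at 24 h in both, which is 20.9% of the 110 in WT and 52.3% of the 44 in KO, and 6 were lower in both, 6.74% of 89 and 15.4% of 39.

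Few genes of monocyte identity and adhesion were past 2-fold between sham and 24 h. The share over all genes measured was also low, at 4.98% in WT and 2.52% in KO, so these counts do not set the lists apart. Of 18 classical monocyte genes outside the gate, 1 was past 2-fold, Thbs1, which encodes the matricellular protein thrombospondin 1, at 632, 1274 and 594 CPM in WT and 490, 992 and 836 CPM in KO. Thbs1 lay near the threshold, at log2 0.37 in WT in the Ly6c2 cells and 0.81 in KO thinned to 1000 UMIs. Of 11 leukocyte adhesion genes measured, 0 were past 2-fold in WT or KO, and 0 of 11 to 12 were in the other 5 comparisons. Of 12 receptors for chemokines and growth factors, 1 was past 2-fold, the fractalkine receptor gene Cx3cr1, lower in WT. Cx3cr1 stood at 114, 28 and 162 CPM in WT and 115, 78.6 and 144 CPM in KO, with log2 ratios of -2.02 (-2.78 to -1.34) in WT and -0.55 (-0.94 to -0.17) in KO, lowest at 24 h in both. Irf8, a transcription factor of monocyte development, was at 141 CPM in WT sham and 93.8 at 24 h, and at 142 and 88.0 in KO.

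From 24 to 72 h of ligation, WT monocytes held less RNA of inflammatory and immediate early genes and more of interferon-induced and macrophage genes. In KO fewer genes of these lists were past 2-fold. The KO list medians were log2 -0.74 for cytokine and inflammasome and -0.27 for immediate early and heat shock genes. They were 0.47 for interferon-induced and 0.17 for macrophage differentiation genes, against 0.03 over all genes. Of 6037 genes measured in WT, 9.89% were past 2-fold, with 5.37% higher and 4.52% lower, and of 5569 in KO 4.02% were, with 2.07% higher and 1.96% lower. These comparisons use the same 24 h libraries as those with sham, so a gene high at 24 h by counting error alone enters both. Of genes measured in both genotypes (5481), 74 were lower at 72 h in both, 29.2% of the 253 in WT and 69.2% of the 107 in KO, and 26 were higher in both, 10.5% of 248 and 26.5% of 98.

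Cebpb, a transcription factor gene of inflammatory and Ly6C-low monocytes, stood at 1226 CPM after sham, 2215 at 24 h and 460 at 72 h in WT hearts, and 1320, 1879 and 581 CPM in the same order in KO hearts. Its log2 ratio of 72 h to 24 h was -2.27 (-2.37 to -2.16) in WT and -1.69 (-1.80 to -1.59) in KO. Sdc4, syndecan 4, stood at 203, 550 and 38.9 CPM in WT and 254, 273 and 51.3 CPM in KO, and Socs3, a feedback inhibitor of cytokine signaling, at 226, 696 and 206 CPM in WT and 244, 484 and 181 CPM in KO. Both were past 2-fold lower at 72 h in WT and in KO, with Socs3 in KO at log2 -0.81 in cells thinned to 1000 UMIs. Of 16 immediate early and heat shock genes, 7 were lower in WT (Fosb, Jun, Junb, Egr1, Ier2, Ier3 and Klf2) and 1 in KO (Ier3, at -0.54 in the cells with at least 5 UMIs of Ly6c2). Of the cytokine and inflammasome genes, 7 of 11 were lower in WT and 3 of 11 in KO, and of the receptors that sense tissue damage 5 of 10 and 1 of 10. The granule gene Lcn2 stood at 147, 301 and 20.5 CPM in WT and 138, 237 and 35.7 CPM in KO, lower at 72 h than after sham in both genotypes.

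Interferon-induced genes were higher at 72 h, in more of the list in WT than in KO. The gate had removed cells with 10 or more UMIs of Ifit1, Ifit2, Ifit3 and Rsad2. Of 17 other genes of the list measured in WT, 8 were higher (Isg15, Irf7, Oasl1, Ifi47, Zbp1, Gbp2, Bst2 and Ly6a), with a median log2 ratio of 0.82, and of 14 in KO 2 were (Isg15 and Ly6a), with a median of 0.47. In the cells with at least 5 UMIs of Ly6c2 the medians were 1.77 and 0.64. Isg15 in KO was at log2 0.33 in cells thinned to 1000 UMIs, and per 10000 UMIs it was at 0.78 in KO and 0.90 in WT, within 2-fold. Isg15, a ubiquitin-like protein, stood at 74.4, 165 and 364 CPM in WT and 105, 134 and 291 CPM in KO. Irf7, a transcription factor that amplifies interferon production, stood at 60.7, 106 and 370 CPM in WT and 80.6, 103 and 170 CPM in KO, and the surface protein gene Ly6a at 12.8, 29.4 and 250 CPM in WT and 25.8, 11.8 and 118 CPM in KO. Ifi27l2a stood at 1568, 1299 and 3983 CPM in WT and 1420, 1344 and 2323 CPM in KO. All 4 were highest at 72 h in both genotypes, and each was lower in KO than in WT there.

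Some genes of macrophages were higher at 72 h as well. Ms4a7, a marker of infiltrating and mature macrophages, stood at 59.9, 12.6 and 261 CPM in WT and 99.6, 20.1 and 176 CPM in KO, lowest at 24 h and highest at 72 h in both genotypes. Lgmn, a lysosomal protease gene, stood at 362, 312 and 866 CPM in WT and 356, 325 and 744 CPM in KO, and Ctsb, cathepsin B, at 953, 659 and 1447 CPM in WT and 1163, 753 and 1480 CPM in KO. Of the macrophage differentiation genes, 7 of 15 were higher in WT at 72 h and 3 of 14 in KO (Ms4a7, Cd63 and Pf4), with medians of 0.78 and 0.17, or 1.46 and 0.76 in the cells with at least 5 UMIs of Ly6c2. In those cells Cd63 (log2 0.63) and Pf4 (0.59) in KO were within 2-fold, and with the gate read per 10000 UMIs so were Cd63 (0.63) and Pf4 (0.43) in KO and C1qa (0.83), C1qb (0.76) and C1qc (0.52) in WT. C1qa was at 309, 179 and 410 CPM in WT and 273, 318 and 351 CPM in KO. Apoe, already high after sham, stood at 3663, 4550 and 6044 CPM in WT and 3989, 6009 and 5006 CPM in KO, within 2-fold across all 6 libraries. Vcan, which the gate did not use, was lower at 72 h than at 24 h in WT (log2 -1.51), and its counts in KO were within 2-fold.

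MHC class II genes, which present antigen to T cells, were low in 1 library, WT at 24 h, and were held by few cells in all. H2-Aa stood at 828, 255 and 1021 CPM in WT and 657, 648 and 846 CPM in KO, H2-Ab1 at 965, 299 and 1187 CPM in WT and 696, 745 and 1026 CPM in KO, and H2-Eb1 at 664, 158 and 744 CPM in WT and 448, 364 and 625 CPM in KO. Cd74, the invariant chain, stood at 3293, 1372 and 4066 CPM in WT and 2966, 3249 and 3205 CPM in KO. In WT, 4 of 7 list genes were lower at 24 h than after sham (median log2 -1.26) and 4 of 8 were higher at 72 h than at 24 h. In KO 0 of 7 and 0 of 8 were past 2-fold. The sum of H2-Aa, H2-Ab1 and H2-Eb1 was 2457 CPM in WT sham and 1801 in KO sham, 712 in WT and 1758 in KO at 24 h, and 2952 in WT and 2498 in KO at 72 h.

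Class II UMIs lay in few monocytes of every library, and the difference moved with how the monocytes were chosen. In each library 3 to 15 cells, 3.89% to 4.55% of the monocytes, held 50% of the UMIs of these 3 genes. In WT at 24 h 5 cells held 86.8% of them. Without the richest cell of each library the sums, in the order sham, 24 h and 72 h, were 2188, 521 and 2788 CPM in WT. In KO they were 1437, 1567 and 2300 CPM, so WT at 24 h stayed the lowest library. After thinning to 1000 UMIs, 27.3% and 15.8% of the monocytes of WT and KO sham held a class II UMI, 13% and 21.2% at 24 h, and 28.9% and 40.1% at 72 h. Unthinned, the shares were 46.4% and 27.4%, 34.8% and 37.0%, and 45.2% and 63.4%. In endothelial cells the thinned share was 1.38% to 2.97%, except for 16.9% in KO at 72 h. In cells with at least 5 UMIs of Ly6c2 the direction at 24 h was the opposite, with log2 ratios to sham in WT of 0.51 for H2-Ab1 and 0.21 for H2-Aa. That reading compares 28 cells with 28. At 24 h 1 of its WT cells stood at 105 class II UMIs per 10000 and the next at 35.1, so this direction too rests on few cells. Read per 10000 UMIs, the gate gave log2 ratios to sham in WT of -0.64 for Cd74, -0.96 for H2-Aa, -0.93 for H2-Ab1 and -0.63 for H2-Eb1, all within 2-fold. Dendritic cell genes summed to 53.9 CPM in WT sham and 109 in WT at 24 h; their part in the result was not tested.

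**Figure D4:**
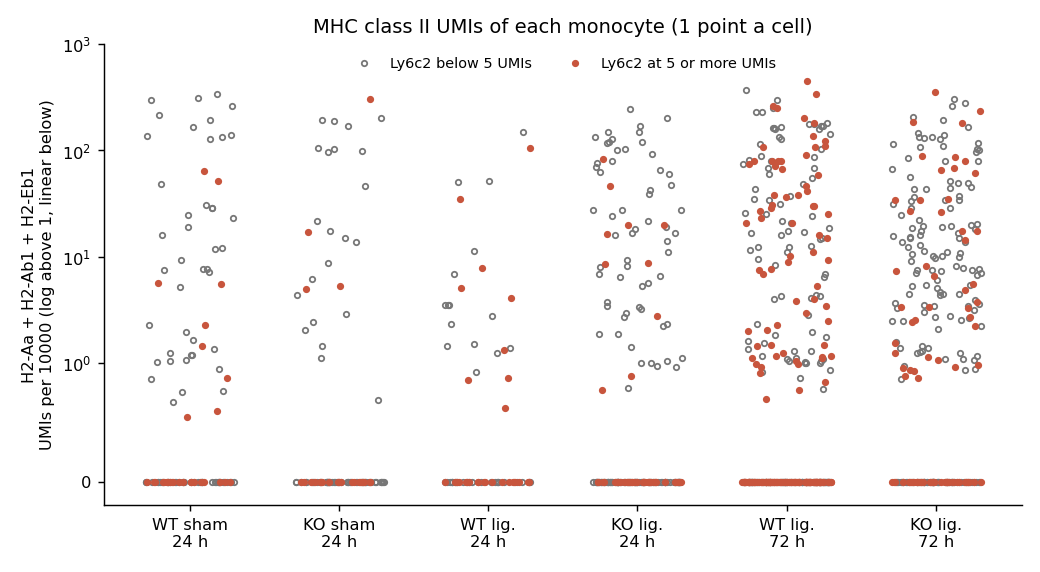
UMIs of H2-Aa, H2-Ab1 and H2-Eb1 per 10000 UMIs of each cell, 1 point a monocyte, by library (lig., ligation), on an axis that is log above 1 and linear below. Most monocytes lie at or near 0 and a few above 100, with filled points for cells of at least 5 Ly6c2 UMIs. In WT at 24 h of ligation 5 cells hold 86.8% of the UMIs.

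Chemokines that draw monocytes through Ccr2 did not follow the same order in WT and KO. Ccl2 (chr11:82035571-82037453) stood at 1416, 2446 and 1062 CPM in WT and 3775, 1214 and 1037 CPM in KO, highest in KO sham. Ccl7 (chr11:82045712-82047525) stood at 258, 600 and 277 CPM in WT and 962, 132 and 306 CPM in KO, and Ccl12 (chr11:82101845-82103400) at 70.2, 50.4 and 108 CPM in WT and 330, 56.1 and 161 CPM in KO, with the highest level of both again in KO sham. Against sham, Ccl7 at 24 h had a log2 ratio of 1.22 (1.0 to 1.43) in WT and -2.86 (-3.08 to -2.65) in KO. Of the chemokine genes, 5 of 10 measured were higher at 24 h in WT and 0 lower, and 2 of 10 were higher (Cxcl2 and Cxcl3) and 3 lower (Ccl2, Ccl7 and Ccl12) in KO. Of the 5 in WT, Ccl4 was at log2 -0.41 and Ccl7 at 0.66 without the richest cell of each library. With cells thinned to 1000 UMIs, the KO ratios were -0.13 for Ccl2, -0.74 for Ccl7 and 1.01 for Ccl12. Read per 10000 UMIs, the WT ratio of Ccl3 was 0.26.

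These chemokines too came from few cells. In WT at 24 h, 272 of the 429 Ccl7 UMIs (63.4%) and 538 of the 1748 Ccl2 UMIs (30.8%) lay in 1 cell. Without the cell richest in Ccl7 in each library, its levels were 143, 225 and 198 CPM in WT and 825, 120 and 231 CPM in KO. Ccl2 without its richest cell stood at 1245, 1736 and 988 CPM in WT and 3557, 1084 and 883 in KO. Ccl12 without its richest cell was at 49.2, 21.5 and 81.7 CPM in WT and 156, 25.0 and 111 CPM in KO. KO sham stayed the highest library for Ccl2, Ccl7 and Ccl12 in this reading. Cxcl9, an interferon-gamma-induced chemokine, had 213 of its 222 UMIs of WT at 72 h in 1 cell.

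**Figure D5:**
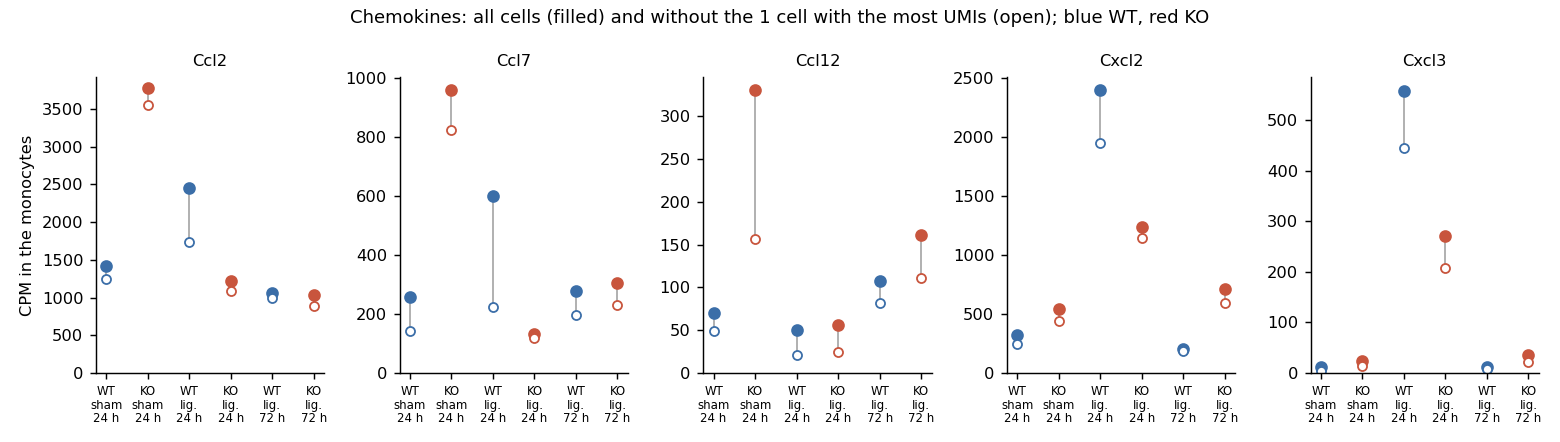
CPM of Ccl2, Ccl7, Ccl12, Cxcl2 and Cxcl3 in the monocytes of each library (lig., ligation), with all cells (filled) and without the 1 cell that held the most UMIs of the gene (open), WT in blue and KO in red. Ccl2, Ccl7 and Ccl12 are highest in KO sham, Cxcl2 and Cxcl3 in WT at 24 h of ligation, and Ccl7 in that library drops from 600 to 225 CPM without 1 cell.

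After sham, KO and WT monocytes differed past 2-fold in 1.90% of 4369 genes, 0.870% higher and 1.03% lower in KO. Of 9 chemokine genes 4 were higher in KO (Ccl2, Ccl3, Ccl7 and Ccl12), with a median log2 ratio of 0.84 against -0.04 over all genes. The log2 ratio was 1.41 (1.33 to 1.5) for Ccl2, or 0.64 in cells thinned to 1000 UMIs, and 1.90 (1.71 to 2.09) for Ccl7. Ccl3 was at 0.31 with the gate read per 10000 UMIs. The heat shock genes Hspa1a and Hspa1b were 2 of 15 immediate early and heat shock genes past 2-fold, both higher in KO, with Hspa1b at 32.5 CPM in WT and 101 in KO. These are near-identical copies whose reads the counting could split. B cell genes summed to 42.8 CPM in WT sham and 193 in KO sham, with Cd79a, Ms4a1 and Igkc at 0 in WT. Without the 1 cell richest in Igkc, its log2 ratio of KO to WT was -1.19, with a count of 0 set to 3 UMIs. The part of B cell genes in these differences was not tested.

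At 24 h of ligation 2.24% of 4561 genes differed past 2-fold, 0.921% higher and 1.32% lower in KO. MHC class II genes were higher in KO in 4 of 7 (median log2 1.20). In the cells with at least 5 UMIs of Ly6c2 (28 in WT, 43 in KO) the median was -0.54, with 1 WT cell at 105 class II UMIs per 10000. With the gate read per 10000 UMIs the ratios were 0.88 for Cd74, 0.78 for H2-Aa, 0.84 for H2-Ab1 and 0.25 for H2-Eb1, all within 2-fold. Of the glycolysis and hypoxia genes, 4 of 19 were lower in KO (Vegfa, Ndrg1, Hilpda and Egln3), with a median of -0.19. Hilpda, at 322 CPM in WT and 115 in KO, had a log2 ratio of -1.49 (-1.77 to -1.21), or -0.57 in the cells with at least 5 UMIs of Ly6c2, and Ndrg1, at 108 and 41.9 CPM, one of -1.36 (-1.85 to -0.88). Of 11 chemokine genes 4 were lower in KO (Ccl2, Ccl7, Cxcl3 and Cxcl10), and without the richest cell Ccl2 was at log2 -0.68, Ccl7 at -0.91 and Cxcl10 at 0.55. Cxcl3 was at -0.92 in cells thinned to 1000 UMIs. Of 12 transcription factors of monocytes 1 was lower, Klf4, at 132 CPM in WT and 52.6 in KO. The monocytes in WT at 24 h were the fewest, 69 cells with 714533 UMIs.

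At 72 h of ligation 1.75% of 6586 genes differed past 2-fold, 1.02% higher and 0.729% lower in KO. Of 17 interferon-induced genes 4 were lower in KO (Irf7, Oasl1, Gbp2 and Ly6a), with a median log2 ratio of -0.52 against -0.02 over all genes. Irf7 had a log2 ratio of -1.12 (-1.31 to -0.94), Ly6a one of -1.09 (-1.32 to -0.87) and Ifi27l2a one of -0.78 (-0.83 to -0.73). Ms4a4c, a classical monocyte gene at 681 CPM in WT and 326 in KO, was the 1 of 18 such genes past 2-fold. Higher in KO were Cxcl2, at 205 CPM in WT and 715 in KO, Hilpda, at 16.2 and 44.4, and Timp1, an inhibitor of matrix proteases, with a log2 ratio of 2.51 (2.09 to 2.93). In cells weighted equally Irf7 was at -0.92, Ly6a at -0.97 and Gbp2 at -0.54, within 2-fold.

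Fibroblast, erythroid and platelet, and T and NK cell genes were highest in the monocytes of KO at 72 h, where the kept cells were also the shallowest. All 7 fibroblast genes were detected and summed to 394 CPM, against 143 to 230 in the other libraries. All 7 erythroid and platelet genes summed to 206 CPM against 10.1 to 29.1, with 181 of the 271 UMIs of Hbb-bs, a beta globin gene, in 1 cell. All 8 T and NK cell genes summed to 62.8 CPM against 0 to 14.5. The other lists were not highest there. The 8 endothelial genes summed to 115 CPM in KO and 13.8 in WT at 72 h, against 214 in WT sham and 133 in KO sham. Neutrophil genes summed to 179 CPM in KO at 72 h against 259 in WT at 24 h, B cell genes to 99.2 against 193 in KO sham, and cardiomyocyte genes to 31.1 against 46.5 in WT at 72 h. Ccl21a, a lymphatic chemokine gene with near-identical copies, was at 223 CPM in KO at 72 h, with 387 UMIs in 20 cells. In WT at 72 h it was at 0 of 3266476 UMIs. Its log2 ratio of KO to WT was 7.92 with this 0 set to the floor of 3 UMIs. The lower counting limit, which uses no floor, was 7.62. Whether these cells or free RNA take part in the KO and WT differences at 72 h was not tested.

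Proliferation genes were sparse in the monocytes. Of the proliferation list, 2 to 3 genes had enough UMIs to be measured in a comparison, and 1 was past 2-fold in 1 comparison, Stmn1, higher in KO at 72 h than at 24 h. After thinning to 1000 UMIs, Mki67 or Top2a was found in 0% to 1.56% of the monocytes (0% to 10.1% unthinned) and in 0% to 6.96% of endothelial cells. In WT at 24 h, 0 of 69 thinned cells allows up to 5.21% of cells with such a UMI at that depth, and 10.1% held one unthinned. Any gene of the whole proliferation list was found in 20.3% to 29.6% of thinned monocytes (77.4% to 89.5% unthinned) and in 25.9% to 46.2% of thinned endothelial cells.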

How the data were processed

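Single-cell RNA was measured in 6 libraries, each the pooled cells of 4 mice. The deposited matrices hold whole UMI counts per gene and cell for 32285 genes, which the file headers credit to Cell Ranger 6.0.0, run by the authors on mm10 per the submitters' processing notes. Other filters are not given in the sources used here. Counts were used as deposited.

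The gate also required S100a8 and S100a9 below 1% of UMIs, at most 2 UMIs of Col1a2 and Cdh5, under 20 of Arg1 and Spp1, under 5 of Ccl24, Saa3 and Ednrb, under 4 of Trem2 and Gpnmb, under 3 of Ear2 and Adgre4, at most 3 of Lyve1, Folr2, Timd4 and Cd163, and under 10 of Ifit1, Ifit2, Ifit3 and Rsad2. Resident macrophages passed the first steps with over 3 UMIs of the resident genes and under 5 of Ly6c2 and Chil3. They had no limit on Arg1, Spp1 or Trem2. Ear2 Adgre4 monocytes held at least 3 UMIs of those 2 genes and under 5 of Ly6c2 and Chil3. Neutrophils had S100a8 and S100a9 at 1% or more. Endothelial cells held at least 3 UMIs of Cdh5 and fibroblasts at least 3 of Col1a2. Each held 0 of the other's gene and of Csf1r, Cd68 and Fcgr1. UMIs were summed over the gated cells of a library, which held 714533 to 3266476 UMIs, and scaled to CPM. Ratios of 2 libraries have exact conditional Poisson intervals, and in the ratio itself, not in its interval, a count of 0 was set to a floor of 3 UMIs. Intervals and floors cover counting error only, not the spread between mice or operations. There were 7 comparisons over 29 gene lists. The members and lists were chosen with earlier results of these data known. Clec7a and Mx1 are not analysed here.

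Named genes were the markers and Trpm4, up to 4 genes a list (most UMIs or largest ratio past 2-fold), the 6 highest and 6 lowest ratios a comparison with at least 100 CPM in the higher library and there 0.25 of the level in other cells, and the 8 genes a direction that differed alike in both genotypes. Genes of short counts (5 or fewer of a list) and Ccl21a's cells were named after their values were seen. Alternatives were thinning, Ly6c2 alone, equal weights for cells, centring on the median gene, removal of Scrublet doublets (0.8% per 1000 cells), a minimum of 200 UMIs, and leaving out the richest cell. The gate per 10000 UMIs was added after seeing the data. Python 3.11.15, numpy 2.4.6, scipy 1.17.1, pandas 2.3.3, scanpy 1.11.5 and biopython 1.88 were used, and the calculations were tested on simulated data. Promoters are RefSeq's for GRCm38.p6, and gene positions are from a GRCm38 annotation matched by gene ID.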

Additional observations from a re-analysis of the deposited data

Results flagged for a closer look

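Ccl7, which encodes a ligand of Ccr2, went in opposite directions in the 2 genotypes in both comparisons over time. At 24 h of ligation against sham its log2 ratio was 1.22 in WT and -2.86 in KO. At 72 h against 24 h it was -1.12 in WT and 1.21 in KO. Each value compares 1 library with 1 other, and the difference between genotypes was not tested. In WT at 24 h 1 cell held 63.4% of the Ccl7 UMIs. Without the cell richest in Ccl7 in each library, the WT values were 0.66 at 24 h against sham and -0.19 at 72 h against 24 h, both within 2-fold. In KO, Ccl7 at 72 h against 24 h was at 0.94 without that cell, 0.79 with cells weighted equally, 0.64 with the gate read per 10000 UMIs and -1.52 in cells thinned to 1000 UMIs. Thinning also left the KO ratio of 24 h to sham at -0.74.

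Timp1, an inhibitor of matrix proteases, also went in opposite directions, with log2 ratios at 24 h against sham of 1.42 in WT and -1.16 in KO, and at 72 h against 24 h of -2.12 in WT and 1.49 in KO. Its levels were 32.5, 86.8 and 19.9 CPM in WT and 89.6, 40.2 and 113 CPM in KO, from 38 to 196 UMIs a library. In the cells with at least 5 UMIs of Ly6c2, Timp1 at 24 h against sham was at 0.09 in WT and -0.44 in KO. Cxcl10, an interferon-induced chemokine, had log2 ratios of -1.72 in WT and 1.23 in KO for 72 h against 24 h, from 23 to 65 UMIs a library, and 0.88 in WT without its richest cell. Neither difference between genotypes was tested.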

How the results depend on the processing

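No paired analysis was possible because each group has 1 library, and no replicate was left out. Shares of gated cells moved beyond their binomial interval under several readings, given in the order WT and KO sham, WT and KO at 24 h, WT and KO at 72 h. With cells thinned to 1000 UMIs they were 1.22% (KO sham), 3.81%, 4.72%, 2.68% and 1.33%. With cells thinned to 2000 UMIs they were 3.66%, 2.07%, 4.86%, 6.58% and 6.84% (KO at 72 h). With at least 5 UMIs of Ly6c2 alone they were 0.526%, 0.412%, 0.875%, 0.639%, 3.84% and 1.66%. Per 10000 UMIs, KO moved to 3.39% at 24 h and 7.33% at 72 h. Removing doublets moved 0 of 6.

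Counts of genes past 2-fold, reported as 207 and 121 for 24 h against sham in WT and KO, 597 and 224 for 72 h against 24 h, and 83, 102 and 115 for KO against WT at sham, 24 h and 72 h, became 37, 55, 106, 80, 9, 24 and 24 with cells thinned to 1000 UMIs, where fewer UMIs leave fewer genes measured. With at least 200 UMIs over the pair they were 45, 28, 176, 64, 8, 14 and 19. With Ly6c2 alone they were 108 and 54 for 24 h against sham and 65 for KO against WT at 24 h. The other 4 settings kept all 7 counts within 1.5 times.

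Directions that turned with Ly6c2 alone were those of MHC class II and 4 others. In WT at 24 h this reading holds 28 cells, 1 of them at 105 class II UMIs per 10000. For 24 h against sham in WT, the list median was 0.32, Cd74 0.38, H2-Aa 0.21, H2-Ab1 0.51 and H2-Eb1 0.02. For KO against WT at 24 h, the list median was -0.54, Cd74 -0.54, H2-Aa -0.45, H2-Ab1 -0.60, H2-Eb1 -1.07 and Timp1 0.01. Mt1 was -0.08 for 24 h against sham in KO, Bnip3 0.42 for 72 h against 24 h in KO, and Pf4 -0.21 for KO against WT at 72 h. Per 10000 UMIs, Ccl4 was -0.32, Cd81 0.62 and Fabp5 -0.04 (WT, 24 h against sham), Mmp9 -1.47 and Pglyrp1 -0.18 (KO, 72 h against 24 h), G0s2 1.64 and Mt2 -3.26 (KO against WT, 24 h), and Tnnt2 5.71 (KO against WT, 72 h). Thinned to 1000 UMIs, Fabp4 was 0.66 (WT, 24 h against sham), Ccl12 1.01 and Nfil3 -0.14 (KO, 24 h against sham), and Bnip3 0.15 and Ccl7 -1.52 (KO, 72 h against 24 h).

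Without the 1 cell richest in the gene, Ccl4 was -0.41 (WT, 24 h against sham), Igkc 4.11 (KO, 24 h against sham) and -1.19 (KO against WT, sham), Ccl4 0.64, Ccl5 -0.33, Cxcl10 0.88, Cxcl9 -0.62 and Tnnt2 -1.47 (WT, 72 h against 24 h), Cxcl10 0.55 and G0s2 0.17 (KO against WT, 24 h), and Tnnt2 1.76 (KO against WT, 72 h). The cause of the other turns was not tested. Centring on the median gene kept all 118 list medians and 1448 of 1452 gene values within their interval. Depth limits genes of low level most, and 1 library a group limits every comparison.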

Other observations

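Transcription factors and matrix genes of the monocytes also differed over time. Id2, an inhibitor of DNA-binding factors, stood at 72.7, 244 and 48.1 CPM in WT and 107, 135 and 73.8 CPM in KO after sham, at 24 h and at 72 h of ligation. Mmp19, a matrix protease gene, stood at 113, 143 and 34.9 CPM in WT and 153, 111 and 49.0 CPM in KO in that order, and Mmp8, the neutrophil collagenase gene, at 79.6, 155 and 41.6 CPM in WT and 92.9, 119 and 53.6 CPM in KO. Mmp19 and Mmp8 were past 2-fold lower at 72 h than at 24 h in both genotypes, and Id2 in WT. Cd9, a tetraspanin gene, stood at 47.1, 260 and 44.4 CPM in WT and 151, 194 and 62.8 CPM in KO, and the lipid carrier gene Fabp5 at 159, 329 and 376 CPM in WT and 228, 233 and 481 CPM in KO. Cd9 was past 2-fold lower at 72 h than at 24 h in both genotypes, and Fabp5 at 72 h was past 2-fold above 24 h in KO (log2 1.05), but at 0.22 in cells thinned to 1000 UMIs and 0.59 with the gate read per 10000 UMIs. In the cells with at least 5 UMIs of Ly6c2, Mmp19 (-0.86) and Cd9 (-0.81) in KO were within 2-fold.

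Anti-apoptotic genes of the Bcl2a1 family, which are near-identical copies whose reads could be split, were lower at 72 h. Bcl2a1b stood at 167, 329 and 131 CPM in WT and 203, 294 and 100 CPM in KO and Bcl2a1d at 55.6, 111 and 38.0 CPM in WT and 77.3, 133 and 28.8 CPM in KO, in the same order. Both were past 2-fold lower at 72 h than at 24 h in WT and in KO, with Bcl2a1b in KO at -0.98 in cells thinned to 1000 UMIs. Emp1, a membrane protein gene, stood at 61.6, 104 and 23.3 CPM in WT and 103, 27.2 and 51.9 CPM in KO, and was lower in KO than in WT at 24 h, with a log2 ratio of -1.93 (-2.49 to -1.38).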
